A study of Mus musculus with 3 samples.

Results

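Heat shock proteins and their DnaJ co-chaperones were followed in left ventricles of mice in which the oxygen sensor Egln1 was deleted with Tie2Cre. The genes were chosen by symbol from the deposited tables: Hsp90, Hsp70 (Hspa and Hsph), small Hsp (Hspb), Hsp60 and Hsp10 (Hspd and Hspe) and DnaJ of types A, B and C, without symbols that mark a pseudogene. This gave 65 entries of 15503 genes in all, with 64 distinct symbols, since Hspa14 names 2 Ensembl IDs. In all, 63 entries occurred in each of the 3 tables, 1 in 2 tables and 1 in 1 table.

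Hsp70 proteins bind unfolded stretches of other proteins and release them through an ATP cycle, which DnaJ proteins start by delivering clients and which Hsp110 proteins reset. Hsp90 completes the folding of signalling proteins, Hsp60 with its lid Hsp10 folds proteins inside mitochondria, and small Hsps hold damaged proteins until they can be refolded. In the working heart these systems guard sarcomere and desmin filaments and the import of mitochondrial proteins. Heat shock factor 1 switches on many of them in the cytosol and mitochondria, while chaperones of the endoplasmic reticulum answer to the unfolded protein response.

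Each genotype was measured in 1 RNA sequencing library, made from left ventricular RNA of 3 pooled mice of the C57BL6J strain; their ages are unknown here. The groups were Egln1Tie2Cre, labelled as lacking Egln1 in cells with Tie2Cre, Egln1/Hif2aTie2Cre, labelled as lacking Hif2a as well, and Egln1 floxed mice without a stated Cre, which the design text calls wild type. The Tie2 promoter drives Cre in endothelial and blood-forming cells, whereas most chaperone RNA of a ventricle can come from any of its cells. In bulk tissue, fewer cells of a type and less RNA per cell cannot be told apart. Levels are FPKM, fragments scaled to transcript length and to all mapped fragments, and depth is unknown. A single library stands for each genotype, so the differences below have no replicate spread beside them and none was tested.

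Egln1 itself stood at 95.7 FPKM in Egln1Tie2Cre, 129.0 in the library labelled Egln1/Hif2aTie2Cre and 129.5 in Egln1 floxed. It was thus not lower in the library labelled Egln1/Hif2aTie2Cre. In bulk ventricle, where Tie2Cre acts in only some of the cells, this value can neither bear out nor contradict the label. Every direction given for that library rests on the label. Epas1, which encodes Hif2a, was at 65.0, 54.5 and 77.4 FPKM in the same order. The 8 cardiomyocyte markers listed throughout summed to 58627 FPKM in Egln1Tie2Cre, 53807 in the library labelled Egln1/Hif2aTie2Cre and 49130 in Egln1 floxed. Of the 8, 4 were above Egln1 floxed in Egln1Tie2Cre, while Myh6 was lower there (3645 against 6691 FPKM). Myl2 alone held 19883 FPKM of the sum in Egln1Tie2Cre, 15211 in the library labelled Egln1/Hif2aTie2Cre and 10992 in Egln1 floxed. The 7 atrial markers summed to 2001, 356 and 225 FPKM in the same order, of which Nppa, a natriuretic peptide gene, held 1858, 256 and 160.2 FPKM. The other 6 summed to 143 FPKM in Egln1Tie2Cre, 100.2 in the library labelled Egln1/Hif2aTie2Cre and 64.4 in Egln1 floxed, with Tbx5 and Nr2f1 lower in Egln1Tie2Cre than in the control. Sums over 3 neutrophil markers were 55.9, 10.03 and 2.15 FPKM, and over 3 epicardial markers 23.98, 2.31 and 2.59 FPKM. Among the epicardial markers, Krt19 and Wt1 were highest in Egln1Tie2Cre, whereas Upk3b was lowest there, at 0.0429, 0.538 and 0.122 FPKM. The 5 macrophage markers summed to 52.4, 92.4 and 74.4 FPKM in the same order, lowest in Egln1Tie2Cre. The part of these cell types in the chaperone values was not tested.

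Promoters were looked at first, because the groups described here are known to answer to different regulators. RefSeq windows (GRCm38.p6) were found for 52 of the 64 symbols, and the 250 bases before each start were searched on both strands. The heat shock element with 3 units, GAANNTTCNNGAA, occurred before Dnajb6, Hspd1 and Hspe1, 3 of the 52 genes, against 0.514% of all 27025 genes with a window. The matches of Hspd1 and Hspe1 are the same bases read from opposite strands, so a shared site counts for both genes. The shorter form with 2 units, GAANNTTC, which every longer form contains, occurred before 11 of the 52, against 7.73% of all genes. The endoplasmic reticulum stress element, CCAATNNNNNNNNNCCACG, occurred before Hspa5, Hsp90b1 and Dnajc3, against 0.13% of all genes. The core of the hypoxia response element, ACGTG, occurred before 16 of the 52, against 18.5% of all genes. A gene counts where any of its windows has the match. A match describes these letters only.

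The stretches below show the elements of some of the genes with a match, 5′ to 3′ on the gene's strand. Matches to a heat shock or endoplasmic reticulum stress element are in capitals. Matches before other genes, such as Dnaja1 and Dnajb6, are not shown. Hsp90aa1 and Hspa8 had no window and were not searched. Hspe1 is shown at chr1:55088053-55088082 (plus strand), a stretch that also lies within the annotated Hspd1 gene on the other strand. Hspb1 is at chr5:135887769-135887918 (plus), Hspa1a at chr17:34972157-34972306 (minus), Hspa5 at chr2:34772020-34772049 (plus), Hsp90b1 at chr10:86705510-86705664 (minus) and Dnajc3 at chr14:118937782-118937931 (plus). The Hspa5 stretch lies before a RefSeq start but within the annotated Hspa5 gene, which begins at 34771970.
Hspe1: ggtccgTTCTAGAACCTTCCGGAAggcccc
Hspb1: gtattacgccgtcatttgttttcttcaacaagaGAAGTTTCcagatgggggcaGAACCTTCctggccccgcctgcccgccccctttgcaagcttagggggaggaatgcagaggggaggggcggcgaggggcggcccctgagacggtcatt
Hspa1a: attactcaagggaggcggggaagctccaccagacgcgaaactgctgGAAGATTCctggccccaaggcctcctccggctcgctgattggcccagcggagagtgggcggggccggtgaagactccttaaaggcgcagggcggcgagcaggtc
Hspa5: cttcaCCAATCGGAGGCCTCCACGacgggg
Hsp90b1: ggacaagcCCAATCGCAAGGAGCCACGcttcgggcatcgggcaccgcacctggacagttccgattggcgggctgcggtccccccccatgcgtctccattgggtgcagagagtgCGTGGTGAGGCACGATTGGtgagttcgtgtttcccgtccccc
Dnajc3: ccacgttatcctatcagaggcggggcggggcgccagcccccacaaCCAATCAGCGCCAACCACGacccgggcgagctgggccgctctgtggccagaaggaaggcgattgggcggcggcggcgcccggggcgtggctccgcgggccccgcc
The 150 bases before Hspa1b differ from those of Hspa1a at 1 position.

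A second kind of sequence bears on the values. Processed pseudogenes, copies of a spliced RNA inserted elsewhere in the genome, can carry nearly the same sequence as the gene they came from. A search of GENCODE M21 transcripts (GRCm38) at an identity of at least 95% over at least 300 bases found such a copy at another place for 11 of the 65 entries. For 8 of them (Dnaja1, Dnajb6, Dnajc17, Dnajc19, Hsp90aa1, Hspa8, Hspb1 and Hspd1) a copy was a processed pseudogene. Hspe1 has a copy annotated as coding, and Hspa1a and Hspa1b are copies of each other, 99.2% identical over 2201 bases. The stretches below are 90 coding bases of 3 of these genes and of a copy of each, with the differing bases in capitals.
Hspb1: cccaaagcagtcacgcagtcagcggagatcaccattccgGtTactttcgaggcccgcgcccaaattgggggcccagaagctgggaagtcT
Hsp25-ps1: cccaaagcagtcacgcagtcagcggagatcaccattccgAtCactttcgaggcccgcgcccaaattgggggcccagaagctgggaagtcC
Hsp90aa1: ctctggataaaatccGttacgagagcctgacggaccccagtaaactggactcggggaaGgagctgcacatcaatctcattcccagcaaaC
Gm12346: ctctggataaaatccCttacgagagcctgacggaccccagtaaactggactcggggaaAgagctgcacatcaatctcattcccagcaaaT
Hspa8: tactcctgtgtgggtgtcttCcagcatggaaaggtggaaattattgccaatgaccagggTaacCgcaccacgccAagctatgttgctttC
Gm8355: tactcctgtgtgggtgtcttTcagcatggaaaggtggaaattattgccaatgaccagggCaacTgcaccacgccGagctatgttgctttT
Each stretch is the one with the most differences. Over the aligned coding sequence, Hspb1 and Hsp25-ps1 differ at 4 of 627 bases, Hsp90aa1 and Gm12346 at 11 of 2199, and Hspa8 and Gm8355 at 25 of 1938. How the authors assigned reads that fit a gene and its copy is not stated in the sources used, so FPKM values of these 11 entries are uncertain.

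The chaperones listed in all 3 libraries spanned 0.756 to 1006 FPKM. Hspb7, a small Hsp of heart and skeletal muscle, had the highest FPKM of all members in every library, with 1006 in Egln1Tie2Cre, 669.8 in the library labelled Egln1/Hif2aTie2Cre and 774 in Egln1 floxed. Hsp90ab1, the constitutive cytosolic Hsp90, ranked second in each, with 547, 659 and 613 FPKM in the same order. At the low end were the inducible Hsp70 genes Hspa1a (1.56, 1.5 and 0.756 FPKM) and Hspa1b (1.201, 1.11 and 0.767 FPKM). Of the 63 members listed throughout, 42 stayed within 1.5-fold over the 3 libraries on the FPKM + 1 scale, 14 of them within 1.2-fold. The same shares over all genes were not counted, so these counts do not set the members apart from other genes. The steadiest were Dnajc27, Dnajb4, Dnajb9 and Hspb8, whose highest and lowest FPKM were 1.03-, 1.07-, 1.08- and 1.08-fold apart.

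**Figure D1:**
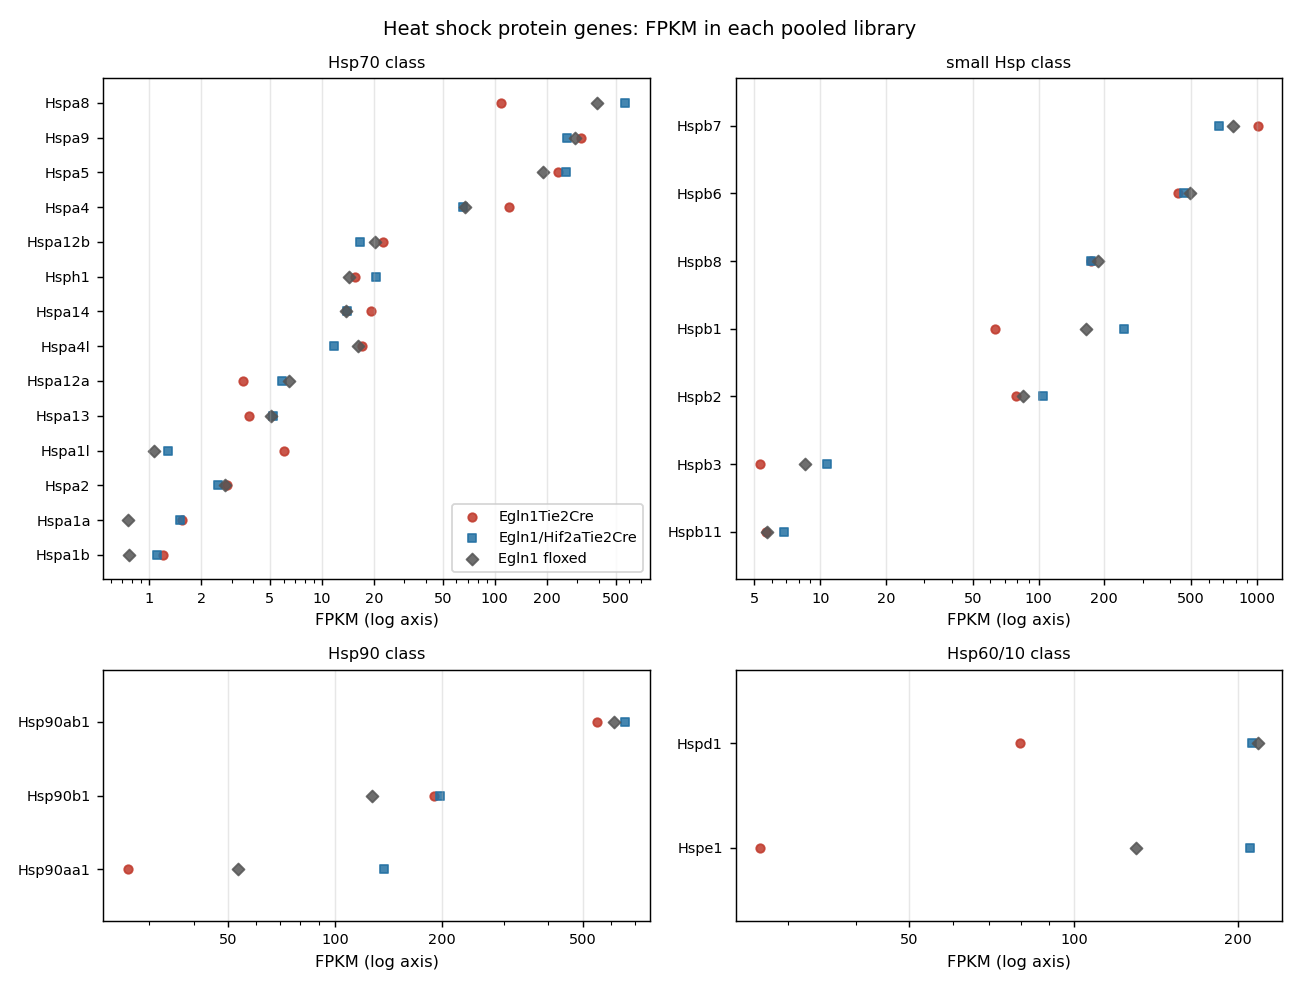
FPKM (log axis) of the 26 heat shock protein genes listed in all 3 tables, with 1 point for each pooled library and panels for the Hsp70, small Hsp, Hsp90 and Hsp60/10 classes. Hsp90aa1, Hspa8, Hspb1, Hspd1 and Hspe1 have their lowest point in Egln1Tie2Cre, while Hspb6 and Hspb8 lie close together in the 3 libraries.

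Genes were kept where FPKM averaged 1 or more over the libraries compared. Of 62 members kept, 5 were at least 1.5-fold higher in Egln1Tie2Cre (8.06%, against 9.46% of all 11978 genes kept). Another 12 were at least 1.5-fold lower (19.4%, against 8.73% of all genes). The threshold and all counts use FPKM + 1, whereas folds printed beside FPKM are plain ratios. The median log2 ratio was 0.08 over the members and 0.02 over all genes kept. Set against Egln1 floxed, the library labelled Egln1/Hif2aTie2Cre had 4 of 62 members at least 1.5-fold higher (6.45%, against 4.42% of all 11888 genes kept) and 0 lower (3.28% of all genes). The first of these shares is near that of all genes. Against Egln1Tie2Cre, that library had 10 of 63 members higher (15.9%, against 9.67% of all 11999 genes kept) and 6 lower (9.52%, against 9.64%). At 2-fold, 1 member was higher (3.93% of all genes) and 7 lower (3.84%) in Egln1Tie2Cre than in Egln1 floxed. The library labelled Egln1/Hif2aTie2Cre had 1 higher (0.538%) and 0 lower (0.437%) against Egln1 floxed, and 8 higher (4.31%) and 1 lower (4.08%) against Egln1Tie2Cre. The comparisons share libraries, so their counts are not independent of one another.

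The members divided by whether they have a near-identical copy. In Egln1Tie2Cre against Egln1 floxed, the 10 kept members with a copy had 8 at least 1.5-fold lower, 0 higher and a median log2 ratio of -1.63. The 52 members without a copy had 4 lower (7.69%, against 8.73% of all genes), 5 higher (9.62%, against 9.46%) and a median of 0.13. Their shares in both directions were near those of all genes, so the excess of lower members lay in those with a copy. Between the library labelled Egln1/Hif2aTie2Cre and Egln1 floxed, members with a copy had 3 higher, 0 lower and a median of 0.53. Members without a copy had 1 higher, 0 lower and a median of 0.03. Of all genes, 4.42% were higher and 3.28% lower in this comparison. These splits are descriptions of single libraries.

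**Figure D2:**
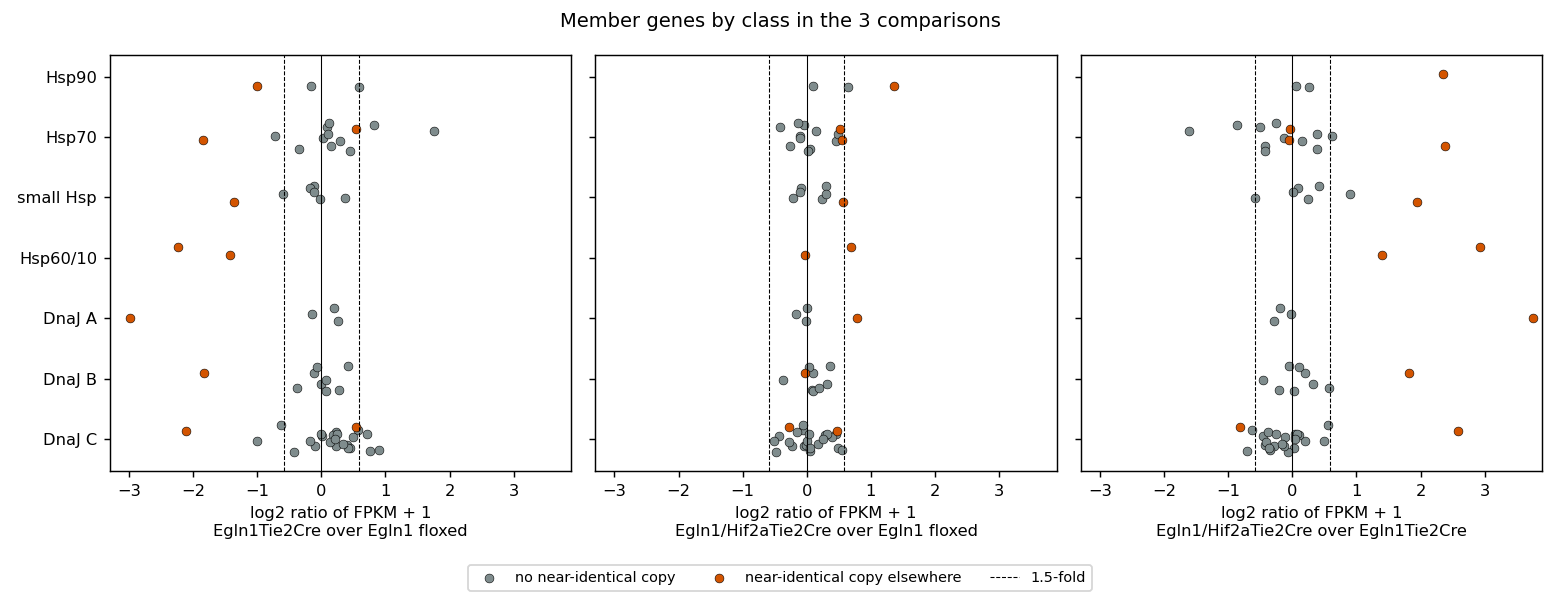
Log2 ratio of FPKM + 1 of each kept member by class, for the 3 comparisons, with orange points for members that have a near-identical copy elsewhere and grey points for the others; dashed lines mark 1.5-fold and vertical scatter has no meaning. In the left panel the 7 members at least 2-fold lower in Egln1Tie2Cre are all orange, and in the middle panel no member lies left of the lower dashed line.

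Hsp90 members differed from one another. Hsp90aa1 (GRCm38 chromosome 12, 110690605 to 110702728, minus strand), the stress-inducible cytosolic Hsp90, had 26.1 FPKM in Egln1Tie2Cre, 138 in the library labelled Egln1/Hif2aTie2Cre and 53.2 in Egln1 floxed. It was the member with the largest ratio in the library labelled Egln1/Hif2aTie2Cre over Egln1 floxed, at 2.59-fold, and the only member at least 2-fold apart there, where 0.538% of all genes were at least 2-fold higher. In Egln1Tie2Cre it was 2.03-fold lower than in Egln1 floxed. In the authors' deposited table, which compares single libraries, its q-value was 0.0301 between the library labelled Egln1/Hif2aTie2Cre and Egln1Tie2Cre. Hsp90ab1 differed by at most 1.204-fold between any of the libraries.

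Hsp90b1 (chromosome 10, 86690209 to 86705509, minus strand), the Hsp90 of the endoplasmic reticulum, had 191 FPKM in Egln1Tie2Cre, 198 in the library labelled Egln1/Hif2aTie2Cre and 127 in Egln1 floxed. Both Tie2Cre libraries lay above the control, at 1.503-fold and 1.56-fold. The first ratio fell just short of the threshold on the FPKM + 1 scale (log2 ratio 0.58) and the second passed it (0.64).

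Among Hsp70 members, the abundant cytosolic ones went separate ways. Hspa8 (chromosome 9, 40800984 to 40810087, plus strand), the constitutive Hsc70, had 109 FPKM in Egln1Tie2Cre, 570.2 in the library labelled Egln1/Hif2aTie2Cre and 391.6 in Egln1 floxed. Hspa8 was 3.61-fold lower in Egln1Tie2Cre, where its place among the members was 11, against 4 in Egln1 floxed. The authors' deposited table gives it a q-value of 0.0112 between the library labelled Egln1/Hif2aTie2Cre and Egln1Tie2Cre. It and Hsp90aa1 are the only members at or below 0.05 in any of the authors' deposited tables. Both q-values concern the gene alone against Egln1Tie2Cre, where listed copies had 128 FPKM (Hspa8) and 30.2 FPKM (Hsp90aa1). Hspa8 and its listed copy summed to 236 FPKM in Egln1Tie2Cre, beside 570.2 for Hspa8 in the library labelled Egln1/Hif2aTie2Cre. Hsp90aa1 and its listed copy summed to 56.4 and 138 FPKM in the same order. The lowest q-value of a member between Egln1Tie2Cre and Egln1 floxed was 0.127. Hspa4 (chromosome 11, 53259814 to 53300457, minus strand), an Hsp110-type exchange factor for Hsp70 without a copy, had 121 FPKM in Egln1Tie2Cre, 65.7 in the library labelled Egln1/Hif2aTie2Cre and 67.6 in Egln1 floxed. It was 1.78-fold higher in Egln1Tie2Cre than in Egln1 floxed, and the other libraries were within 1.03-fold of each other. The related Hspa4l had 17.1, 11.8 and 16.1 FPKM and Hsph1, a heat-inducible Hsp110, had 15.5, 20.6 and 14.3 FPKM in the same order.

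Low Hsp70 members showed the largest ratio among those without a copy. Hspa1l (chromosome 17, 34972703 to 34979285, plus strand), an Hsp70 best known from testis, had 6.03 FPKM in Egln1Tie2Cre, 1.29 in the library labelled Egln1/Hif2aTie2Cre and 1.07 in Egln1 floxed. This was 5.63-fold higher in Egln1Tie2Cre than in the control. Its exons overlap the antisense gene Gm10501, which had 4.64, 2.95 and 2.85 FPKM, and without strand information reads of both cannot be told apart. Hspa12a, a distant Hsp70 relative, was lower in Egln1Tie2Cre (3.48 FPKM, against 6.41 in Egln1 floxed), and its paralogue Hspa12b, known from endothelial cells, had 22.6 FPKM in Egln1Tie2Cre and 20.2 in Egln1 floxed. Hspa1a was at most 2.06-fold apart between libraries on plain FPKM, all of them near or below 1.6 FPKM. Hspa14, a ribosome-associated Hsp70, had 19.1, 13.96 and 13.7 FPKM for its main ID, which GENCODE M21 calls Gm45902. Its second ID was listed at 0.000159 FPKM in Egln1Tie2Cre, 0.257 in the library labelled Egln1/Hif2aTie2Cre and 0.183 in Egln1 floxed.

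The organelle Hsp70s were steadier. Hspa9, the mitochondrial Hsp70, had 316 FPKM in Egln1Tie2Cre, 264 in the library labelled Egln1/Hif2aTie2Cre and 291 in Egln1 floxed. Hspa5 (chromosome 2, 34771970 to 34777547, plus strand), the BiP chaperone of the endoplasmic reticulum, had 232, 259 and 189 FPKM in the same order. Hspa5 was thus 1.23-fold higher in Egln1Tie2Cre and 1.37-fold higher in the library labelled Egln1/Hif2aTie2Cre than in the control, neither past the threshold.

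Small Hsps were the most abundant class, with summed FPKM over 7 members of 1766 in Egln1Tie2Cre, 1674 in the library labelled Egln1/Hif2aTie2Cre and 1719 in Egln1 floxed. Hspb6, which is phosphorylated on cardiac beta-adrenergic signalling, had 433, 462 and 492 FPKM, and Hspb8, the partner of Bag3 in chaperone-assisted autophagy, had 174, 174 and 188 FPKM in that order. Hspb7 was 1.30-fold higher in Egln1Tie2Cre than in Egln1 floxed and 1.502-fold lower in the library labelled Egln1/Hif2aTie2Cre than in Egln1Tie2Cre, just past the threshold. Hspb1 (chromosome 5, 135887919 to 135889563, plus strand), the heat-inducible Hsp25, had 63.5 FPKM in Egln1Tie2Cre, 246 in the library labelled Egln1/Hif2aTie2Cre and 165 in Egln1 floxed. It was the abundant small Hsp with the widest range and the one with a pseudogene copy. Hspb2 and Hspb3, which form a complex in muscle, had 78.6, 104.8 and 84.9 FPKM and 5.32, 10.8 and 8.51 FPKM. Hspb2 shares exon sequence with Cryab on the other strand, the alpha-crystallin chaperone, which had 885, 1056 and 899 FPKM. Hspb11, an intraflagellar transport subunit despite its name, had 5.63, 6.84 and 5.69 FPKM. Hspb9 was listed at 0.0779 FPKM in the library labelled Egln1/Hif2aTie2Cre and 0.199 in Egln1 floxed.

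RNA of the mitochondrial Hsp60 and Hsp10 genes was listed low in Egln1Tie2Cre, with the uncertainty that copies bring. Hspd1 (Hsp60; chromosome 1, 55077835 to 55088243, minus strand) had 79.8 FPKM in Egln1Tie2Cre, 212 in the library labelled Egln1/Hif2aTie2Cre and 217 in Egln1 floxed. Hspe1 (Hsp10; chromosome 1, 55088132 to 55091307, plus strand) had 26.7, 210.5 and 129.7 FPKM. Both were lower in Egln1Tie2Cre than in Egln1 floxed, at 2.72-fold and 4.86-fold. Hspe1 was also 1.62-fold higher in the library labelled Egln1/Hif2aTie2Cre than in the control, while Hspd1 was within 1.03-fold. The genes lie head to head on opposite strands, their annotated exons overlap, and both have copies.

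Type A and B DnaJ proteins, the main partners of cytosolic Hsp70, were within 1.5-fold of Egln1 floxed apart from the members with copies. Dnaja2, the most abundant of them, had 121 FPKM in Egln1Tie2Cre, 105 in the library labelled Egln1/Hif2aTie2Cre and 105 in Egln1 floxed. Dnaja4, a sterol-responsive member, had 58.0, 47.4 and 48.0 FPKM, and Dnaja3, the mitochondrial type A protein, had 56.1, 55.2 and 62.4 FPKM. Dnaja1 (chromosome 4, 40722150 to 40737149, plus strand), a heat-inducible partner of Hspa8, had 4.31 FPKM in Egln1Tie2Cre, 70.7 in the library labelled Egln1/Hif2aTie2Cre and 40.9 in Egln1 floxed. At 9.49-fold lower it had the largest ratio of any member in Egln1Tie2Cre over Egln1 floxed, and it was 1.73-fold higher in the library labelled Egln1/Hif2aTie2Cre than in the control. Dnajb6, which holds back protein aggregation and is mutated in a human limb-girdle muscular dystrophy, had 9.72, 36.7 and 37.2 FPKM. Dnajb1, the classic heat-inducible type B protein, had 7.24, 9.29 and 7.23 FPKM and has no copy. Dnajb4, Dnajb5 and Dnajb12, other type B proteins, had 57.8, 59.0 and 55.1 FPKM, then 29.8, 44.8 and 38.9 FPKM, and 14.8, 10.6 and 14.03 FPKM. Dnajb5 was 1.503-fold higher on plain FPKM in the library labelled Egln1/Hif2aTie2Cre than in Egln1Tie2Cre, just under the threshold on the FPKM + 1 scale (log2 ratio 0.57).

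Type C DnaJ proteins, a mixed set with specialised duties, had 3 of 24 genes at least 1.5-fold higher (12.5%) and 3 lower (12.5%) in Egln1Tie2Cre than in Egln1 floxed, against 9.46% and 8.73% of all genes. The higher ones were Dnajc24, Dnajc12 and Dnajc2. Dnajc24, which acts in diphthamide synthesis on elongation factor 2, had 10.3 FPKM in Egln1Tie2Cre, 7.83 in the library labelled Egln1/Hif2aTie2Cre and 5.06 in Egln1 floxed. Dnajc12, a co-chaperone of aromatic amino acid hydroxylases, had 11.9, 6.89 and 6.61 FPKM. Dnajc2, which binds ribosomes and serves nascent chains, had 25.4, 21.1 and 15.1 FPKM. In these 3 genes the Egln1Tie2Cre library was the highest, and the library labelled Egln1/Hif2aTie2Cre was near the control in Dnajc12 and between the others in Dnajc24 and Dnajc2. Dnajc7, a tetratricopeptide protein that binds Hsp70 and Hsp90, had 92.0, 70.9 and 68.6 FPKM. Dnajc17, which takes part in splicing and has a copy, had 12.5, 6.65 and 8.24 FPKM.

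Mitochondrial type C members also went both ways. Dnajc15, of the protein import motor, was the most abundant type C gene, with 156 FPKM in Egln1Tie2Cre, 159.8 in the library labelled Egln1/Hif2aTie2Cre and 114 in Egln1 floxed. Dnajc19, its relative in the same motor and a gene of a human dilated cardiomyopathy with ataxia, had 17.3, 108.7 and 78.3 FPKM, and has a copy. Dnajc30, which is needed for complex I upkeep in humans, had 16.6, 24.9 and 26.1 FPKM. Dnajc11, which associates with the cristae-organising complex, had 32.4, 20.5 and 21.4 FPKM. Dnajc28 had 9.08, 13.2 and 19.1 FPKM, so that it was 2.11-fold lower in Egln1Tie2Cre than in Egln1 floxed, with no copy found. Exons of Dnajc19, Dnajc24 and Dnajc30 overlap those of Fxr1, Dcdc5 and Bud23 on the other strand, so their values are uncertain on that account too. The same holds for other members of several classes. Among them are Dnaja1 (with Smu1), Dnaja4 (Wdr61), Dnajc7 (Cnp), Dnajc17 (Zfyve19), Hspa12a (Eno4) and Hspb6 (Proser3).

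**Figure D3:**
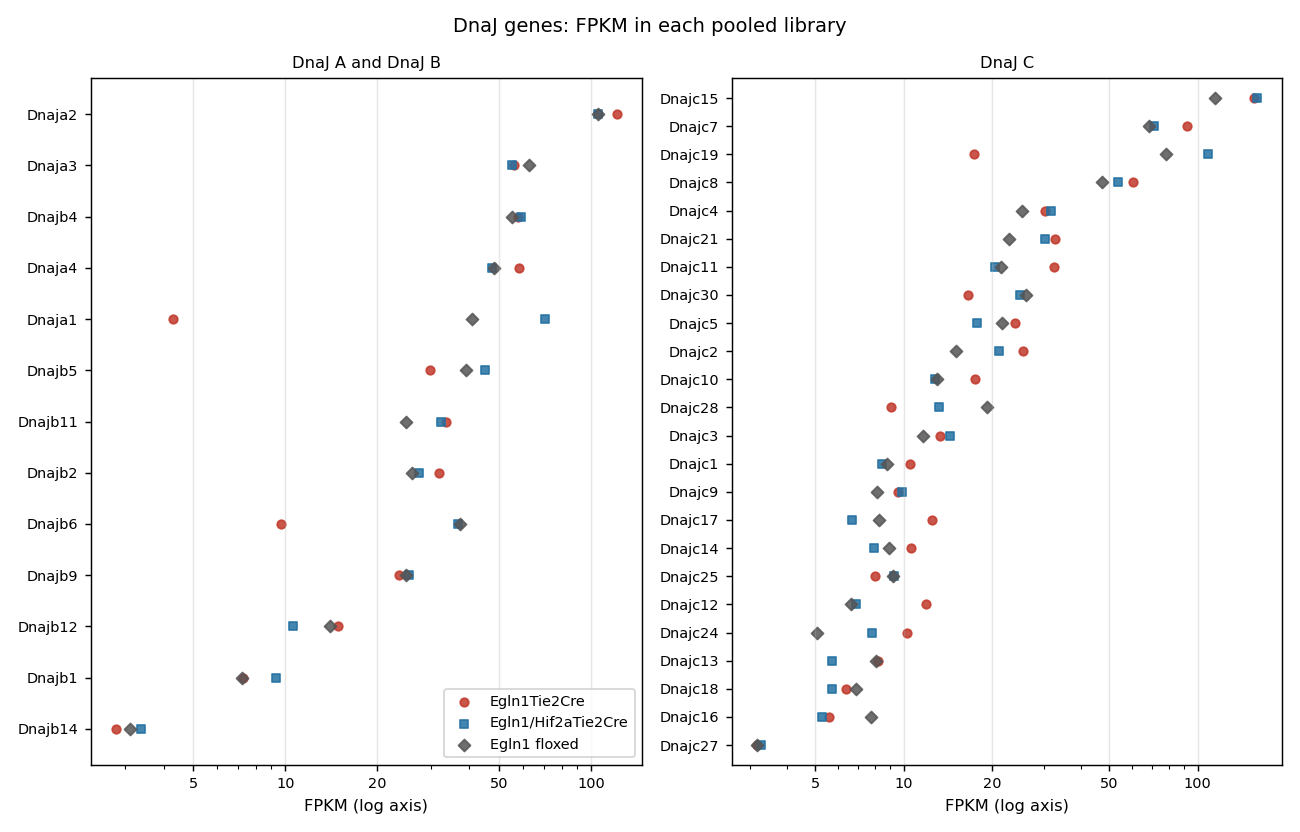
FPKM (log axis) of the 37 DnaJ genes in each pooled library, with type A and B at left and type C at right. Dnaja1, Dnajb6 and Dnajc19 have an Egln1Tie2Cre point far left of the others (4.31, 9.72 and 17.3 FPKM), and most other genes have their 3 points close together.

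Copies of the low genes had high values in the same library. Hsp25-ps1, the copy of Hspb1, had 123 FPKM in Egln1Tie2Cre, 0.179 in the library labelled Egln1/Hif2aTie2Cre and 0.115 in Egln1 floxed. Hspd1-ps3 had 51.0, 0.115 and 0.144 FPKM, and Gm12346, the listed copy of Hsp90aa1, had 30.2, 0.510 and 0.233 FPKM. Gm8355, the listed copy of Hspa8, had 128 FPKM in Egln1Tie2Cre and 0.241 in Egln1 floxed. In the libraries where they were listed, these copies were thus high in Egln1Tie2Cre alone. The 3 copies of Dnaja1 summed to 30.7 FPKM in Egln1Tie2Cre and the 3 listed copies of Dnajb6 to 27.6 FPKM, against at most 0.318 FPKM in either of the other libraries.

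Gene and listed copies summed came closer to the control than the gene alone for all 6 genes with listed copies. Hspb1 and its copy summed to 187 FPKM in Egln1Tie2Cre and 165 in Egln1 floxed, Hsp90aa1 and its copy to 56.4 and 53.4 FPKM, and Dnajb6 and its copies to 37.3 and 37.3 FPKM. Dnaja1 and its copies summed to 35.0 FPKM in Egln1Tie2Cre and 41.0 in Egln1 floxed. Hspa8 and its listed copy still summed to 1.66-fold less, with 236 FPKM in Egln1Tie2Cre and 391.8 in Egln1 floxed, and so did Hspd1 and its copy, with 131 and 217 FPKM (1.66-fold). Lengths of gene and copy differ, so these sums are not expression levels. For Dnajc17 and Dnajc19 the copy found was not among the genes of the tables. The part of copies in the low values of Egln1Tie2Cre was not tested. Outside Egln1Tie2Cre the listed copies of these 6 genes were at 0.510 FPKM or less each, beside gene values of 36.7 FPKM or more.

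**Figure D4:**
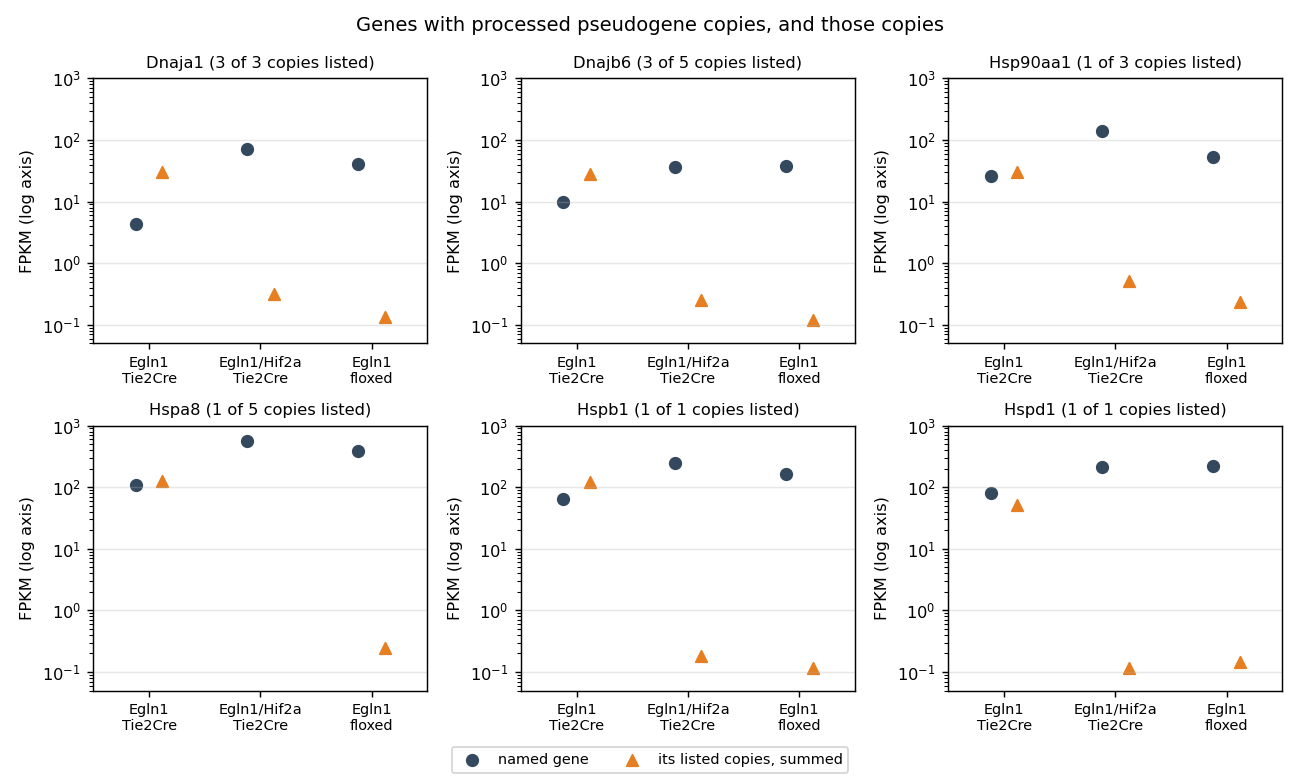
FPKM (log axis) of 6 genes with listed processed pseudogene copies (circles) and the sum of those copies (triangles) in each pooled library; a missing triangle is a copy with no value for that library. In Egln1Tie2Cre the triangles lie between 27.6 and 128 FPKM, and in the other libraries at 0.510 FPKM or less.

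Known targets of heat shock factor 1 were then read together in the comparison whose libraries both have low values for the copies listed there. Gm8355, a copy of Hspa8, had no value in the library labelled Egln1/Hif2aTie2Cre. Other copies of Hspa8 and Hsp90aa1, and that of Hspe1, were not listed at all. The 10 genes (Hsp90aa1, Hspa1a, Hspa1b, Hspa8, Hspb1, Hspd1, Hspe1, Hsph1, Dnaja1 and Dnajb1) were grouped from general knowledge after their values were seen, so the group is a description. Of 9 kept, 8 were above Egln1 floxed in the library labelled Egln1/Hif2aTie2Cre, 3 of them at least 1.5-fold, and the median log2 ratio was 0.54. Over all genes, 49.4% were above Egln1 floxed in this comparison and 4.42% at least 1.5-fold higher. The ratios ranged between -0.03 for Hspd1 and 1.36 for Hsp90aa1. Hspb1 and Hspa8 lay just under the threshold, at 1.49- and 1.46-fold on plain FPKM. The 3 genes past it, Hsp90aa1, Hspe1 and Dnaja1, all have copies. Members outside the group with a heat shock element match were Dnaja4, Dnajb6, Dnajc27, Hspb3 and Hspb6. Their log2 ratios here were -0.02, -0.02, 0.04, 0.31 and -0.09. In Egln1Tie2Cre, 3 of the 9 kept were above Egln1 floxed, against 51.9% of all genes. At least 1.5-fold lower were 6, against 8.73% of all genes, and the median log2 ratio was -1.37. Hsf1, which encodes the factor itself, had 12.1 FPKM in Egln1Tie2Cre, 14.95 in the library labelled Egln1/Hif2aTie2Cre and 11.9 in Egln1 floxed. Of the other regulators of this family, Hsf2 had 7.83, 5.40 and 5.92 FPKM and Hsbp1, a binding protein of heat shock factors, had 87.2, 83.5 and 71.4 FPKM. None of the 4 kept regulators was 1.5-fold apart in any comparison.

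Of 8 endoplasmic reticulum members, 4 (Hspa5, Hsp90b1, Dnajb11 and Dnajc3) were above the control in both Tie2Cre libraries. Both ratios use the same Egln1 floxed library, and the share of all genes above it in both was not counted. The 8 were grouped after the values were seen. Of them, 6 were above Egln1 floxed in Egln1Tie2Cre, against 51.9% of all genes (median log2 ratio 0.27). At least 1.5-fold higher were 0, against 9.46% of all genes, and lower 0, against 8.73%. A partly different set of 6 was above Egln1 floxed in the library labelled Egln1/Hif2aTie2Cre, against 49.4% of all genes (median 0.16). Of the 8, 1 was at least 1.5-fold higher there, against 4.42% of all genes, and 0 were lower, against 3.28%. Dnajb11, a BiP partner, had 33.6 FPKM in Egln1Tie2Cre, 32.3 in the library labelled Egln1/Hif2aTie2Cre and 24.8 in Egln1 floxed. Dnajc3, which has the same promoter element as Hspa5 and Hsp90b1, had 13.3, 14.3 and 11.6 FPKM, and Dnajc10, a disulfide reductase, had 17.5, 12.8 and 13.0 FPKM. Dnajb9, another target of the unfolded protein response, had 23.6, 25.5 and 24.9 FPKM. Hspa13, an Hsp70 of microsomes, had 3.76, 5.24 and 5.04 FPKM, and Dnajc1, a membrane-bound BiP partner, had 10.5, 8.46 and 8.79 FPKM. Hspa13 and Dnajb9 were thus below the control in Egln1Tie2Cre, and Dnajc1 and Dnajc10 slightly below it in the library labelled Egln1/Hif2aTie2Cre.

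The wider list of endoplasmic reticulum folding genes lay above the median of all genes. In Egln1Tie2Cre, 22 of 25 kept genes were above Egln1 floxed (51.9% of all genes were), 5 of them by 1.5-fold or more (9.46% of all genes), and 1 was lower by as much (8.73%). The median log2 ratio was 0.35, beside 0.02 for all genes. The library labelled Egln1/Hif2aTie2Cre had 19 of 25 above Egln1 floxed (49.4% of all genes were), 4 of them by 1.5-fold or more (4.42%), and 1 lower by as much (3.28%). The median was 0.38, beside -0.0038 for all genes. Manf, a secreted factor of the stressed endoplasmic reticulum, had 79.7 FPKM in Egln1Tie2Cre, 68.2 in the library labelled Egln1/Hif2aTie2Cre and 36.9 in Egln1 floxed. Creld2, a BiP-associated isomerase, had 14.4, 12.3 and 6.36 FPKM. Pdia5, a disulfide isomerase, had 9.76, 1.96 and 2.74 FPKM and was high in Egln1Tie2Cre alone. Sec61b, a translocon subunit with a near-identical copy, had 9.75, 27.4 and 15.2 FPKM. Herpud1, the gene counted lower in the library labelled Egln1/Hif2aTie2Cre, had 157.7, 102.2 and 158.8 FPKM. Ern1 was below the control in both Tie2Cre libraries, with 2.77, 2.47 and 4.12 FPKM.

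**Figure D5:**
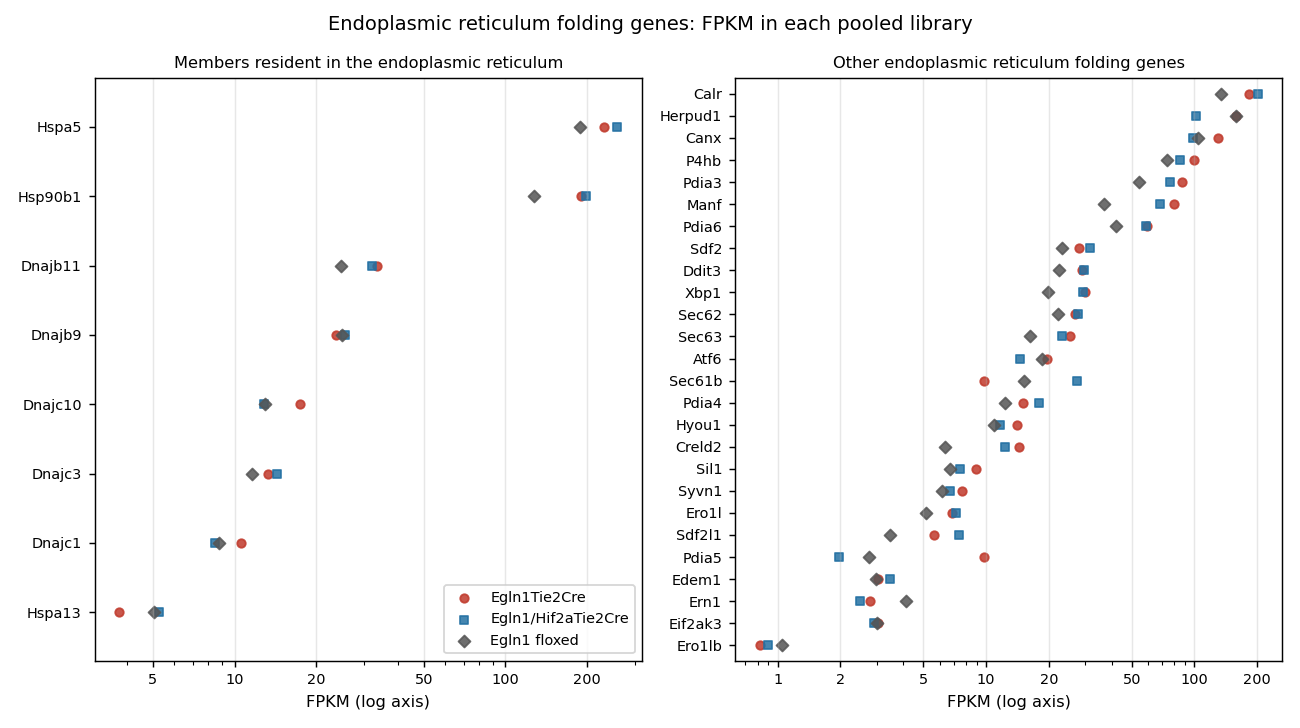
FPKM (log axis) of the 8 members resident in the endoplasmic reticulum (left) and of 26 other folding genes of that compartment (right) in each pooled library. Hspa5, Hsp90b1, Manf and Creld2 have both Tie2Cre points right of the control, while Dnajb9 and Eif2ak3 have their points close together.

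Partners of the Hsp70 and Hsp90 machines were mostly flat, as were most genes. In Egln1Tie2Cre against Egln1 floxed, 2 of 32 kept co-chaperones were higher by 1.5-fold or more (9.46% of all genes were) and 2 lower (8.73%). The median log2 ratio was 0.14. In the library labelled Egln1/Hif2aTie2Cre against Egln1 floxed, 0 were higher (4.42% of all genes were) and 1 was lower (3.28%), with a median of 0.01. Fkbp5, an Hsp90 partner induced by glucocorticoids, had 35.4 FPKM in Egln1Tie2Cre, 7.32 in the library labelled Egln1/Hif2aTie2Cre and 16.5 in Egln1 floxed. It lay 2.14-fold above the control in Egln1Tie2Cre and 2.26-fold below it in the library labelled Egln1/Hif2aTie2Cre. St13, the Hsp70-interacting protein Hip, had 98.5, 56.5 and 60.6 FPKM. Ptges3, the Hsp90 partner p23, had 15.3, 48.2 and 34.0 FPKM, and its pseudogene Ptges3-ps had 32.2, 0.268 and 0.0335 FPKM. Bag3, the partner of Hspb8, had 84.7, 96.5 and 88.4 FPKM.

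Cytosolic chaperonin and prefoldin genes, which fold actin and tubulin, were above the control in 13 of 13 kept genes in Egln1Tie2Cre (median log2 ratio 0.42, 3 at least 1.5-fold higher). Of all genes, 51.9% were above it, 9.46% were at least 1.5-fold higher, and the median was 0.02. They were above it in the library labelled Egln1/Hif2aTie2Cre in 11 of 13 (median 0.25, 2 at least 1.5-fold higher), where 49.4% of all genes were above it, 4.42% were at least 1.5-fold higher and the median was -0.0038. Pfdn5 had 152 FPKM in Egln1Tie2Cre, 150.6 in the library labelled Egln1/Hif2aTie2Cre and 81.9 in Egln1 floxed, and has a near-identical copy. Pfdn4 had 13.8, 13.5 and 7.16 FPKM and Pfdn2 had 93.95, 68.9 and 53.3 FPKM. Of 13 mitochondrial folding and protease genes, 1 was lower in Egln1Tie2Cre than in Egln1 floxed by 1.5-fold or more (8.73% of all genes). None was higher (9.46%). For the library labelled Egln1/Hif2aTie2Cre against Egln1 floxed, 1 was higher (4.42% of all genes) and 0 were lower (3.28%). The gene in both counts was Pam16, a regulator of the import motor, with 0.938, 80.2 and 50.2 FPKM. Gm9803, a copy with 100% identity over 534 bases, had 47.3, 0.335 and 0.145 FPKM.

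Proteins that chaperones guard in the heart were read last. Myot, a Z-disc protein, had 74.7 FPKM in Egln1Tie2Cre, 18.1 in the library labelled Egln1/Hif2aTie2Cre and 14.1 in Egln1 floxed. Lmna, the nuclear lamin A, had 83.8, 55.8 and 49.1 FPKM, and Des, the filament protein desmin that small Hsps protect, had 832, 579 and 584 FPKM. Of 6 such genes, 2 were higher in Egln1Tie2Cre than in Egln1 floxed by 1.5-fold or more (9.46% of all genes were) and 0 were lower (8.73%). In the library labelled Egln1/Hif2aTie2Cre against Egln1 floxed, 0 were 1.5-fold apart, where 4.42% of all genes were higher and 3.28% lower.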

How the data were processed

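RNA of 3 mice per genotype was pooled before sequencing, giving 1 library per genotype. The authors' 3 deposited tables set the libraries against each other, with FPKM, a fold ratio and a q-value per gene, per the file headers. TopHat2 and Cuffdiff are named in the submitters' processing notes; no source used here gives versions, genome build or annotation. Columns were assigned from the sample titles in each table's name and its direction column and checked on values shared between tables. Members and lists were chosen with earlier results of these data known. Log2 ratios of FPKM + 1 were taken where FPKM averaged 1 or more over the libraries compared, and genes at least 1.5-fold apart on that scale were counted. The ratio step was tested on simulated data. No test was made, and FPKM keeps no depth. By rule, the text names members at least 1.5-fold apart in any comparison with 5 FPKM or more in the higher library, the 3 highest of each class, the extremes of each class in each comparison, and up to 3 genes per list. Further genes were added after their values were seen. Copies were found with blastn 2.17.0 against GENCODE M21 transcripts, and ratios were computed in Python 3.11.15 with pandas 2.3.3. A table's 21 gene symbols that a spreadsheet had turned into dates are no members. Alternatives were another pseudocount, other filters, a 2-fold threshold, centring, members without copies and values from the other tables.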

Additional observations from a re-analysis of the deposited data

How the results depend on the processing

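No paired analysis was possible because each genotype has a single library. Of the counts and medians given for all members, 52 of the values recomputed under the alternatives stayed within 1.5 times the count or within 0.1 of the median, and 8 counts moved. The alternative with values from the other tables repeats nearly the same FPKM, so its unchanged results were fixed in advance. With a threshold of 2-fold, 1 member was higher and 7 lower in Egln1Tie2Cre against Egln1 floxed, 1 higher in the library labelled Egln1/Hif2aTie2Cre against Egln1 floxed, and 1 lower in that library against Egln1Tie2Cre. With a pseudocount of 0.1, 9 members were higher in Egln1Tie2Cre against Egln1 floxed. Without members that have a near-identical copy, 4 were lower in Egln1Tie2Cre against Egln1 floxed, 1 was higher in the library labelled Egln1/Hif2aTie2Cre against Egln1 floxed, and 2 were higher in that library against Egln1Tie2Cre. That setting counts 52 members. FPKM does not keep the number of fragments behind a value, so the precision of low genes such as Hspa1a and Hspa1b is unknown.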
